A study of Mus musculus with 19 samples.

Results

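Cell lines expanded from sorted GFP-positive mouse embryonic stem (ES) cells were compared with freshly collected GFP-positive cells of AICAR-treated cultures. The comparison holds 5 of the 19 libraries of the series: 2 expanded lines, chosen by the titles that end in GFP+1 and GFP+2, and 3 GFP-positive libraries from AICAR-treated cultures, chosen by the titles that end in GFP+, GFP+_1 and GFP+_2. The libraries were picked by these titles alone, but the comparison and the gene lists were chosen with earlier results of these data known. All of these cells are Rex1 GFPd2 mouse ES cells, a reporter line in which a short-lived GFP reports activity of Rex1, the gene whose symbol is Zfp42. All had been differentiated for 2 days in serum-containing differentiation medium, sorted as SSEA1 and GFP double-negative cells, and returned to that medium with AICAR until day 15. The 3 GFP-positive libraries (replicates 1, 2 and 3) are the GFP-positive cells at day 15. The 2 sorted lines (line 1 and line 2) are GFP-positive cells then grown on gelatin in maintenance medium with LIF and 2 inhibitors (2i), one of MEK and one of GSK3, and passaged every 3 to 4 days. The labels call the lines undifferentiated and in maintenance after reversion, and record no sorting for the GFP-positive libraries although their titles name a GFP fraction. They do not say whether the lines came from separate sorts or the GFP-positive libraries from separate cultures, so p-values measure the spread between these libraries, which may be technical. Medium, AICAR, passage number and outgrowth of some cells over others all differ between the groups and cannot be told apart.

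As background, LIF acts through its receptor and the kinase JAK on the transcription factor STAT3, which supports self-renewal of mouse ES cells. The MEK inhibitor of 2i blocks signalling from FGF4 to ERK, which otherwise moves ES cells toward the formative and primed states of the epiblast, and the GSK3 inhibitor stabilises beta-catenin and so raises Wnt target genes. AICAR enters cells through nucleoside transporters, is phosphorylated by adenosine kinase to ZMP, an intermediate of purine synthesis, and ZMP activates the energy-sensing kinase AMPK.

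Read counts per gene came to 6249922 and 7060297 in the lines and to 12751260, 14233421 and 8262357 in GFP-positive replicates 1, 2 and 3. Per the file headers, replicate 3 and both lines share a sequencing project, here called the first. GFP-positive replicates 1 and 2 come from another project and were sequenced more deeply. Over 7373 genes at a mean of 16 CPM (read counts scaled to the library size by TMM) or more, lines 1 and 2 differed by a median of 1.06-fold, with 2 genes more than 2-fold apart. GFP-positive replicates 1 and 2 differed by a median of 1.10-fold, with 45 genes more than 2-fold apart. Replicate 3 stood apart from them by 1.16- and 1.15-fold, with 248 and 193 such genes, and a line differed from a GFP-positive library by 1.28- to 1.31-fold. Summed over the 25 entries of a list of primitive and visceral endoderm markers, replicate 3 held 14710.3 CPM against 1281 and 1986 CPM in replicates 1 and 2 and 1237 and 1192 CPM in the lines. Most of the line sums was Apoe, a member that ES cells also express, at 896 and 873 CPM. Apoe stood at 393, 317 and 404 CPM in replicates 1, 2 and 3. Similar sums in the lines and replicate 1 thus do not mean similar levels of the other members. Values are therefore given by replicate, and each list's main counts are followed by those in fits without line 1 and without line 2. Counts without a GFP-positive replicate, with scaling by library size, or in a fit within the first project that sets the lines against replicate 3 alone follow where they differ from the main ones by 1.5 times or more, or where 1 of them is 0 and the other is not. ES cell markers, which go with the labelled cell type, were read in all 5 libraries, in replicate 3 beside the endoderm markers. The 20 naive pluripotency entries summed to 5159 to 5273 CPM in the lines and 3128 to 4457 CPM in the GFP-positive libraries, and none was at 0 reads in either group. The GFP-negative and whole-culture AICAR libraries held 1552 and 2026 CPM, also with none at 0 reads. Having reads for every entry therefore does not single out ES cells.

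The lines differed from the GFP-positive cells broadly: the naive factor Nanog, the Wnt target Cdx1, the STAT3-induced genes Pim1 and Bcl3, the Zscan4 copies and most tested genes of ribosomes and purine synthesis were higher. Otx2 and most other formative genes, the ERK feedback genes Dusp4 and Spry4, the de novo methyltransferase gene Dnmt3a, the cyclin D2 gene Ccnd2 and the endoderm genes Cubn and Dab2 were lower. Of 12593 genes tested with edgeR's quasi-likelihood test, 2210 (17.5%) were higher and 2407 (19.1%) lower in the lines at a Benjamini-Hochberg adjusted p under 0.05. Among these, 736 of the higher and 1369 of the lower genes changed more than 2-fold, and 255 and 605 more than 4-fold. Every called gene had all libraries of one group above all of the other, which 65.9% of all tested genes also had (31.4% with the lines higher and 34.5% with the lines lower). In all, 36.7% of tested genes were called. The median log2 fold change of all tested genes was -0.05, with a middle range of -0.59 to 0.38. Scaled by library size alone the calls were 1459 higher and 3321 lower, the higher share was 30.5% in place of 47.9%, and the median moved to -0.22, so small folds are read against that shift. The calls rested on both lines: without line 1 they were 331 higher and 303 lower, and without line 2 414 higher and 396 lower, when the remaining line is assumed to vary as the GFP-positive libraries do. Of 182 named genes or joined entries that passed the test, 99 lost the call in both of these fits, and 64 kept it in every alternative fit.

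**Figure D1:**
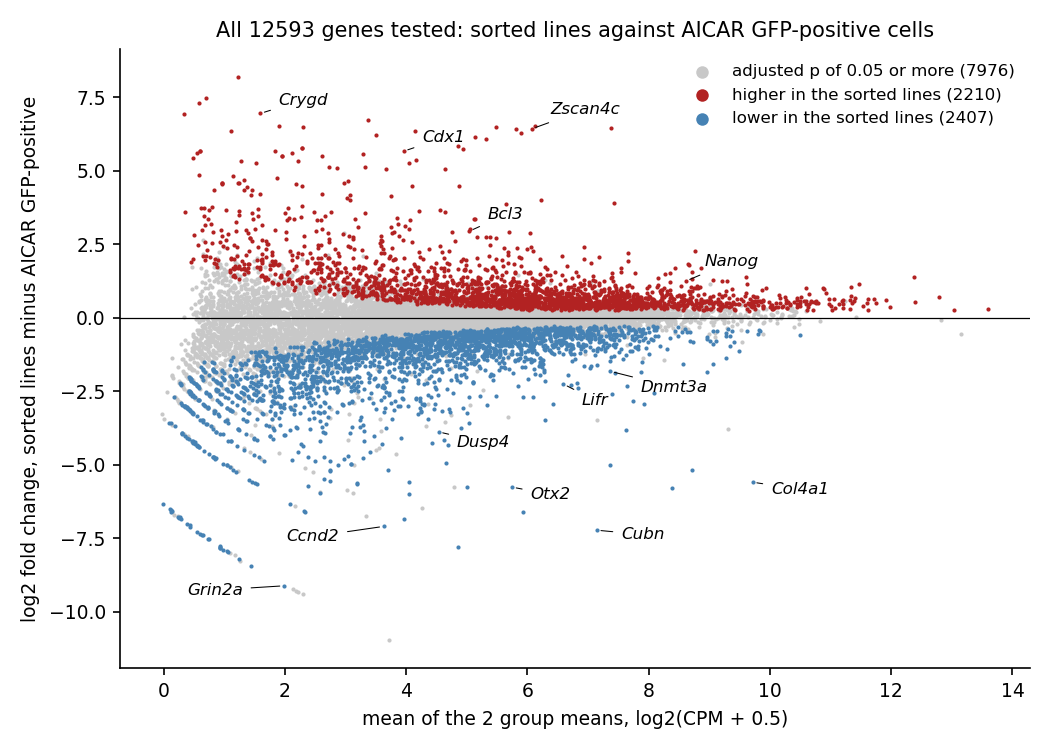
Log2 fold change of each of the 12593 tested genes (sorted lines minus AICAR GFP-positive cells) against its mean level. Red points are the 2210 genes higher and blue points the 2407 genes lower in the lines at an adjusted p under 0.05. The Zscan4c, Cdx1 and Bcl3 points lie above 2.5, and Otx2, Ccnd2, Cubn and Col4a1 lie below -5.

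The library of undifferentiated Rex1 GFPd2 cells in LIF and 2i served as a reference level that the fit did not use. It lay nearer to the lines than to the GFP-positive cells for 2048 of the 2210 higher genes (92.7%) and for 2178 of the 2407 lower genes (90.5%), against 76.7% of all tested genes. The mean of the lines fell inside the range of the 8 colony lines, which were picked as colonies and grown in the same medium, for 79% of higher and 81.4% of lower genes and for 81.8% of all. The mean of the GFP-positive libraries fell inside that range for 5.7% of higher and 6.31% of lower genes, against 35.5% of all. Called genes were picked for a gap between the groups, and the lines mostly lay inside the range. A lower GFP-positive share among called genes was thus largely built in. The same choice of genes bears on the share nearer to the lines, and its part there was not tested. The undifferentiated library, the colony lines and both sorted lines are all of the first sequencing project, as is GFP-positive replicate 3. GFP-positive replicates 1 and 2 are of the other project, and the part of project in these shares was not tested.

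**Figure D2:**
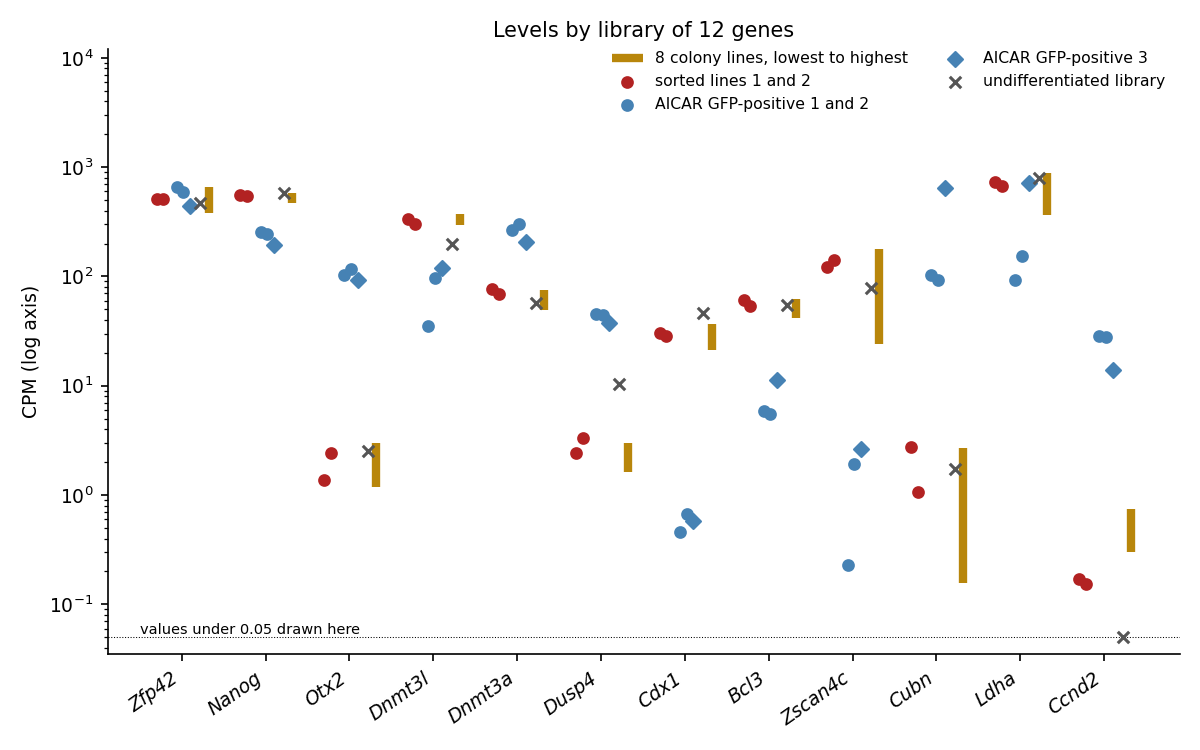
CPM on a log axis for 12 genes in sorted lines 1 and 2 (red), AICAR GFP-positive replicates 1 and 2 (blue circles) and 3 (blue diamonds), the undifferentiated library (crosses) and the range of the 8 colony lines (bars). Otx2 lay at 1.37 and 2.43 CPM in the lines and at 93.7 CPM or above in the GFP-positive libraries, while Zfp42 overlapped between the groups and replicate 3 stood apart for Cubn and Ldha.

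Naive pluripotency genes, which mark the ground state of the preimplantation epiblast, were more often higher than lower in the lines. Of 20 tested, 8 rose (Sox15, Nanog, Fbxo15, Klf5, Tcl1, Tfcp2l1, Nr5a2 and Klf2), 1 fell (Klf4) and 11 did not pass (40% higher and 5% lower, against 17.5% and 19.1% of all genes), and the median log2 fold change was 0.48, against -0.05 over all genes. Nanog, a homeodomain factor of the naive network, stood at 562 and 542 CPM in the lines and 254, 244 and 195 CPM in the GFP-positive libraries. Every line lay more than 2-fold above every GFP-positive library (log2 fold change 1.25 ± 0.13, adjusted p = 0.00207). Sox15, a Sox factor, stood at 23.5 and 20.2 CPM in the lines and 5.15, 6.16 and 5.04 CPM in the GFP-positive libraries, and the groups did not overlap (log2 fold change 2.0 ± 0.19, adjusted p = 0.00187). Fbxo15, a target of Oct4 and Sox2 long used as an ES cell reporter, stood at 283 and 283 CPM in the lines and 79.3, 65.9 and 117 CPM in the GFP-positive libraries (log2 fold change 1.7 ± 0.23, adjusted p = 0.00357). Among the Kruppel-like factors, Klf5 was at 151 and 151 CPM in the lines and 72.8, 74.8 and 93.2 CPM in the GFP-positive libraries (log2 fold change 0.92 ± 0.13, adjusted p = 0.00385). Klf4 went the other way, at 158 and 151 CPM in the lines and 329, 277 and 288 CPM in the GFP-positive libraries, with both lines below all 3 GFP-positive libraries (log2 fold change -0.95 ± 0.11, adjusted p = 0.00258). Klf2 was at 283 and 289 CPM in the lines and 179.8, 211 and 132 CPM in the GFP-positive libraries (log2 fold change 0.71 ± 0.19, adjusted p = 0.0279), a call lost without GFP-positive replicate 1, without either line and under library-size scaling. Tfcp2l1, a factor downstream of LIF, was at 125 and 131 CPM in the lines and 68.1, 62.4 and 41 CPM in the GFP-positive libraries (log2 fold change 1.16 ± 0.20, adjusted p = 0.0079).

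Zfp42, the gene the reporter reads, did not pass the test. It stood at 515 and 509.8 CPM in the lines and 654, 590.4 and 439 CPM in the GFP-positive libraries, so both lines lay within the GFP-positive range (log2 fold change -0.13 ± 0.17, adjusted p = 0.569). Without replicate 3 it was lower in the lines (-0.28, adjusted p = 0.0105), and against replicate 3 alone, within the first sequencing project, its value turned positive (0.25, adjusted p = 0.387). Esrrb, an orphan nuclear receptor that GSK3 inhibition raises, stood at 392 and 354 CPM in the lines and 399, 338 and 264 CPM in the GFP-positive libraries (log2 fold change 0.16 ± 0.17, adjusted p = 0.494) and passed as higher only against replicate 3 (0.52, adjusted p = 0.00535) among the alternatives. Tbx3 and Prdm14, a T-box factor and a repressor of FGF signalling and DNA methylation, had log2 fold changes of 0.48 ± 0.17, adjusted p = 0.0688 and 0.39 ± 0.17, adjusted p = 0.119. For Nr0b1, an orphan nuclear receptor, the value was 0.27 ± 0.14, adjusted p = 0.175. Fits without line 1 and without line 2 each gave 3 higher and 1 lower. There were 12 higher and 4 lower without replicate 3, and 16 higher and 1 lower within the first sequencing project.

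General pluripotency genes, expressed in both naive and primed cells, split: 5 of 20 rose, 7 fell and 8 did not pass (25% higher and 35% lower, against 17.5% and 19.1% of all genes), with a median of 0.21. Pou5f1, which encodes Oct4, stood at 1658 and 1632 CPM in the lines and 1351, 1314 and 1057 CPM in the GFP-positive libraries (log2 fold change 0.41 ± 0.12, adjusted p = 0.039), and both lines were above all 3 GFP-positive libraries by less than 2-fold. That call was lost without replicate 2, without either line, and under upper-quartile and library-size scaling. Sox2, its partner, fell from 615, 527 and 478 CPM in the GFP-positive libraries to 304 and 305 CPM in the lines (log2 fold change -0.83 ± 0.13, adjusted p = 0.00515). Sall1, a zinc-finger factor, stood at 228 and 209 CPM in the lines and 963, 795 and 574 CPM in the GFP-positive libraries (log2 fold change -1.83 ± 0.22, adjusted p = 0.003). Epcam, an epithelial adhesion molecule, was at 36.2 and 40.1 CPM in the lines and 89.8, 132 and 121 CPM in the GFP-positive libraries (log2 fold change -1.58 ± 0.18, adjusted p = 0.00272). Phc1, a Polycomb subunit encoded next to Nanog, fell (log2 fold change -1.14 ± 0.11, adjusted p = 0.0019) while Nanog rose. Gdf3, a TGF-beta family ligand, rose from 50.4, 48.8 and 33.6 CPM to 131 and 131 CPM (log2 fold change 1.56 ± 0.17, adjusted p = 0.00247). On the authors' RPKM scale, which divides by gene length and so allows genes to be set side by side, the mean level in the lines was 1646 for Pou5f1, 470.2 for Nanog, 389 for Zfp42, 215 for Sox2 and 72.6 for Klf4. In the GFP-positive libraries the mean RPKM was 1324, 222, 479.6, 428 and 158 in the same order, so Nanog ranked above Sox2 in the lines and below it in the GFP-positive cells. Removing either line left 1 higher and 3 lower. The split was 9 higher and 9 lower without replicate 3, and 2 higher and 9 lower with scaling by library size.

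Formative and primed epiblast genes were the counterpart: 12 of 19 tested fell in the lines, 1 rose and 6 did not pass (5.26% higher and 63.2% lower, against 17.5% and 19.1% of all genes), with a median log2 fold change of -1.42. Otx2, the transcription factor that drives exit from the naive state, stood at 1.37 and 2.43 CPM in the lines and 104, 116 and 93.7 CPM in the GFP-positive libraries. Every GFP-positive library was more than 30-fold above every line (log2 fold change -5.75 ± 0.23, adjusted p = 0.000203), and the undifferentiated library held 2.52 CPM. Fgf5, the classical marker of the primed epiblast, stood at 0 and 0.607 CPM in the lines and 11.3, 12.2 and 13 CPM in the GFP-positive libraries (log2 fold change -5.2 ± 0.65, adjusted p = 0.00315). Fgf15 stood at 1.54 and 0.911 CPM in the lines and 23.1, 22.2 and 14.7 CPM in the GFP-positive libraries (log2 fold change -4.03 ± 0.37, adjusted p = 0.00152). Pou3f1, which encodes the POU factor Oct6, was at 1.37 and 0.607 CPM in the lines and 6.51, 25.3 and 12.7 CPM in the GFP-positive libraries, with replicate 1 nearest to the lines (log2 fold change -3.92 ± 0.77, adjusted p = 0.0109). Car4, a carbonic anhydrase, was at 0.171 and 0.152 CPM in the lines and 6.58, 7.3 and 18.5 CPM in the GFP-positive libraries. The lines held 2 reads of Car4 in all, and the GFP-positive to line ratio of summed reads was 60.1 (95% exact counting interval 16.5 to 498), adjusted p = 0.00425. The exception was Lefty2, a Nodal inhibitor, at 199 and 215 CPM in the lines and 58.1, 57 and 56.2 CPM in the GFP-positive libraries (log2 fold change 1.86 ± 0.08, adjusted p = 0.00034). With line 1 removed there were 1 higher and 3 lower, and with line 2 removed 1 higher and 5 lower. The counts became 2 higher and 12 lower without replicate 3, and 2 higher and 13 lower within the first sequencing project. Otx2, Fgf5 and Fgf15 kept their calls in every alternative fit.

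No member of the MEK-ERK response list rose, and 10 of 22 tested fell in the lines (45.5%, against 19.1% of all genes), with a median of -0.82. Dusp4, a phosphatase that inactivates ERK and is induced by it, stood at 2.4 and 3.34 CPM in the lines and 45.6, 44.4 and 37.7 CPM in the GFP-positive libraries, with more than 10-fold between the nearest libraries (log2 fold change -3.88 ± 0.22, adjusted p = 0.000475). Dusp6, another ERK phosphatase, was at 38.7 and 37.1 CPM in the lines and 98.4, 81.3 and 58.9 CPM in the GFP-positive libraries (log2 fold change -1.07 ± 0.22, adjusted p = 0.0125). Spry4, a receptor tyrosine kinase feedback inhibitor, was at 20.7 and 24 CPM in the lines and 92.3, 78.8 and 43.9 CPM in the GFP-positive libraries (log2 fold change -1.68 ± 0.33, adjusted p = 0.0106). Spred2, of a related family, was at 56.7 and 50 CPM in the lines and 97.5, 102 and 82.9 CPM in the GFP-positive libraries (log2 fold change -0.82 ± 0.13, adjusted p = 0.00547). The ETS factor Etv5 fell by less than 2-fold, from 386, 337 and 309 to 234 and 218 CPM (log2 fold change -0.61 ± 0.12, adjusted p = 0.0113). Its relative Etv4 did not pass, at 126 and 113 CPM in the lines and 121, 116 and 102 CPM in the GFP-positive libraries (log2 fold change 0.08 ± 0.11, adjusted p = 0.604). Ccnd1, which encodes cyclin D1, fell from 141, 106 and 85.6 to 41.8 and 41.5 CPM (log2 fold change -1.42 ± 0.22, adjusted p = 0.00523), and Jun, of the AP-1 complex, from 41.5, 28.4 and 62.6 to 9.77 and 13.2 CPM (log2 fold change -1.93 ± 0.37, adjusted p = 0.0102). Egr1, an immediate early gene, stood at 121 and 153 CPM in the lines and 360.1, 144 and 282 CPM in the GFP-positive libraries, and replicate 2 lay between the 2 lines (log2 fold change -0.94 ± 0.37, adjusted p = 0.0883). Each fit with 1 line left out had 0 higher and 1 lower.

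Wnt response genes moved both ways: 5 of 14 tested rose, 2 fell and 7 did not pass (35.7% higher and 14.3% lower, all genes 17.5% and 19.1%), with a median of 0.10, and a further 6 members of the list were too low to test. Cdx1, a caudal homeobox gene and direct target of beta-catenin, stood at 30.5 and 28.7 CPM in the lines and 0.454, 0.669 and 0.573 CPM in the GFP-positive libraries. The lowest line was more than 40-fold above the highest GFP-positive library (log2 fold change 5.67 ± 0.24, adjusted p = 0.000216), and the undifferentiated library held 46.2 CPM. Sp5, a zinc-finger gene that beta-catenin activates, stood at 10.6 and 12.5 CPM in the lines and 0.454, 0.803 and 1.72 CPM in the GFP-positive libraries (log2 fold change 3.59 ± 0.50, adjusted p = 0.004). Porcn, the acyltransferase that lets Wnt ligands be secreted, was at 32.4 and 31.7 CPM in the lines and 10.6, 9.5 and 14 CPM in the GFP-positive libraries (log2 fold change 1.5 ± 0.20, adjusted p = 0.00336). Tnfrsf19 was at 8.4 and 7.75 CPM in the lines and 3.78, 3.41 and 2.64 CPM in the GFP-positive libraries (log2 fold change 1.29 ± 0.28, adjusted p = 0.0143). Axin2, the feedback scaffold of the destruction complex, lay at 48 and 60.6 CPM in the lines and 27.7, 42.9 and 28 CPM in the GFP-positive libraries with an adjusted p of 0.0496, at the threshold, and its call was lost in 9 alternative fits. The 2 that fell were Notum, a Wnt-inactivating lipase, at 35.3 and 46.9 CPM in the lines and 78.4, 84.4 and 57.4 CPM in the GFP-positive libraries (log2 fold change -0.84 ± 0.21, adjusted p = 0.0227) and named after its values were seen, and Dkk1, a secreted Wnt inhibitor, at 0.514 and 0.607 CPM in the lines and 2.35, 2.61 and 11.7 CPM in the GFP-positive libraries, where replicate 3 held most (log2 fold change -3.24 ± 1.00, adjusted p = 0.0451). Lef1, a nuclear partner of beta-catenin, did not pass, at 4.8 and 4.25 CPM in the lines and 6.13, 12.2 and 39.9 CPM in the GFP-positive libraries (log2 fold change -2.08 ± 0.83, adjusted p = 0.0911), nor did T, the mesoderm factor Brachyury, at 1.54 and 1.37 CPM in the lines and 0, 0.602 and 1.38 CPM in the GFP-positive libraries (log2 fold change 1.23 ± 1.09, adjusted p = 0.403). Removal of line 1 gave 2 higher and 0 lower, and removal of line 2 gave 3 higher and 0 lower. There were 5 higher and 1 lower without replicate 2, 5 higher and 4 lower without replicate 3, 5 higher and 3 lower within the first sequencing project, and 4 higher and 4 lower with scaling by library size.

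The promoters of Sp5 and Dkk1 are shown because both genes passed the test, in opposite directions, and both hold the core letters bound by TCF/LEF factors, CTTTGA. The sequences are from RefSeq, build GRCm38.p6, and run from 250 bases before to 50 bases after the annotated start, with each match on either strand in capitals (a match on the opposite strand reads TCAAAG). The Sp5 window is chr2:70474673-70474972 on the + strand and the Dkk1 window chr19:30549447-30549746 on the - strand.
Sp5: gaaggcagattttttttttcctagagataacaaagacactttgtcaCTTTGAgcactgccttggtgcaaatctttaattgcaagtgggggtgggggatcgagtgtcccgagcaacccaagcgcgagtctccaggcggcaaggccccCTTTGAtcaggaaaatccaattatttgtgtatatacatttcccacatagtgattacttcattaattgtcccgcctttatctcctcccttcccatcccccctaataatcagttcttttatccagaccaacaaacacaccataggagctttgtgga
Dkk1: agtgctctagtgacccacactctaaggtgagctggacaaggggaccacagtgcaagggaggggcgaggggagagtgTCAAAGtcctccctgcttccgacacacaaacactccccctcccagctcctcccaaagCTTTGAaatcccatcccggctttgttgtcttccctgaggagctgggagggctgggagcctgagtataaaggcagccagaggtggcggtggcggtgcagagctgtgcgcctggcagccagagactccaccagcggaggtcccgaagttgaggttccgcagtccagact
In Sp5 both matches are on the strand shown and begin 204 and 104 bases before the start. In Dkk1 one match begins 174 bases before the start on the opposite strand and the other 117 bases before it on the strand shown. CTTTGA occurs on either strand in 5257 of the 32851 promoters of the same length in the table (16%). The Axin2 window holds none, and 1 of the 2 Tnfrsf19 windows holds 1. Cdx1, Porcn and Notum, which also passed the test, had no promoter entry and could not be searched. A match describes letters only, since binding was not measured.

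Pim1 and Bcl3, which STAT3 induces, rose, while the receptor subunits Lifr and Il6st fell. In the LIF-STAT3 list 4 of 10 tested members rose (Pim1, Bcl3, Pim3 and Stat3), 3 fell (Lifr, Il6st and Jak1) and 3 did not pass (40% higher and 30% lower, all genes 17.5% and 19.1%), with a median of 0.28. Pim1, a survival kinase induced by STAT3, stood at 96.2 and 89.3 CPM in the lines and 20.7, 23.2 and 22.4 CPM in the GFP-positive libraries (log2 fold change 2.07 ± 0.11, adjusted p = 0.000441). Bcl3, a nuclear partner of NF-kappaB, stood at 60.5 and 54.2 CPM in the lines and 5.9, 5.49 and 11.2 CPM in the GFP-positive libraries, and the groups were more than 4-fold apart at their nearest (log2 fold change 2.95 ± 0.31, adjusted p = 0.00219). Pim3 was at 84 and 84 CPM in the lines and 50.9, 52.4 and 56.6 CPM in the GFP-positive libraries (log2 fold change 0.66 ± 0.09, adjusted p = 0.00425). Lifr, the LIF receptor, stood at 29 and 37.7 CPM in the lines and 152, 141 and 184 CPM in the GFP-positive libraries, all GFP-positive libraries being above both lines (log2 fold change -2.25 ± 0.17, adjusted p = 0.00111). Socs3, the feedback inhibitor of the pathway, stood at 40.8 and 37.1 CPM in the lines and 15.1, 13.4 and 43.2 CPM in the GFP-positive libraries, so replicate 3 lay above both lines and replicates 1 and 2 below (log2 fold change 0.72 ± 0.50, adjusted p = 0.295). Without replicate 3 it was higher in the lines (1.45, adjusted p = 7.66e-05), and against replicate 3 alone its sign was negative (-0.13, adjusted p = 0.614). Fits without line 1 and without line 2 each gave 2 higher and 1 lower. The split was 4 higher and 2 lower without GFP-positive replicate 1.

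In the Nodal and TGF-beta list 1 of 15 tested rose, 5 fell and 9 did not pass (6.67% higher and 33.3% lower, all genes 17.5% and 19.1%), with a median of -0.65. The one that rose was Lefty2 (given above), while its neighbour Lefty1 had a log2 fold change of 0.39 ± 0.14, adjusted p = 0.0681. The ligand Nodal overlapped between the groups, at 75.6 and 73.7 CPM in the lines and 77.6, 103 and 54.8 CPM in the GFP-positive libraries (log2 fold change -0.08 ± 0.25, adjusted p = 0.817), and its sign turned without replicate 2 and within the first project. Skil, a SMAD co-repressor induced by the pathway, fell from 97.1, 105 and 125 to 27.8 and 30.8 CPM (log2 fold change -1.89 ± 0.14, adjusted p = 0.00108). Smad3, a signal transducer, was at 3.94 and 3.95 CPM in the lines and 14, 9.44 and 10.4 CPM in the GFP-positive libraries (log2 fold change -1.51 ± 0.27, adjusted p = 0.00857). Inhbb, an activin subunit, was at 14.2 and 10.9 CPM in the lines and 53.3, 66.6 and 29.6 CPM in the GFP-positive libraries (log2 fold change -1.99 ± 0.37, adjusted p = 0.00928). Fst, the activin antagonist follistatin, was at 2.4 and 0.911 CPM in the lines and 13.2, 20.7 and 49.1 CPM in the GFP-positive libraries (log2 fold change -4.07 ± 0.77, adjusted p = 0.00995). Removing either line left 1 higher and 1 lower. The counts became 2 higher and 5 lower without replicate 2, 5 higher and 7 lower without replicate 3, and 3 higher and 7 lower within the first sequencing project.

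The BMP and Id list gave 3 higher, 3 lower and 6 not passing of 12 tested (25% higher and 25% lower, all genes 17.5% and 19.1%), with a median of -0.14. Bmp4, the ligand, stood at 94.1 and 87.2 CPM in the lines and 49.9, 53 and 40.8 CPM in the GFP-positive libraries (log2 fold change 0.92 ± 0.13, adjusted p = 0.00436). Bmpr1a, a type I receptor, moved the other way, at 40.1 and 39.5 CPM in the lines and 77.3, 72.9 and 72.4 CPM in the GFP-positive libraries (log2 fold change -0.90 ± 0.10, adjusted p = 0.00235). Among inhibitors of differentiation, Id3 was at 40.3 and 37.7 CPM in the lines and 8.93, 10.8 and 8.48 CPM in the GFP-positive libraries (log2 fold change 2.04 ± 0.16, adjusted p = 0.00128). Id2 was at 1.54 and 0.759 CPM in the lines and 5.83, 6.36 and 13.1 CPM in the GFP-positive libraries (log2 fold change -2.86 ± 0.56, adjusted p = 0.011). Id1 was at 14.9 and 16.1 CPM in the lines and 24.4, 24.8 and 12.7 CPM in the GFP-positive libraries (log2 fold change -0.42 ± 0.31, adjusted p = 0.321). So Id3 rose, Id2 fell and Id1 did not pass. Smad6, an inhibitory SMAD, was at 6.34 and 7.29 CPM in the lines and 0.681, 1.41 and 2.41 CPM in the GFP-positive libraries (log2 fold change 2.22 ± 0.50, adjusted p = 0.0175). Without line 1, and likewise without line 2, there were 1 higher and 1 lower. Calls numbered 3 higher and 2 lower without GFP-positive replicate 1, 2 higher and 2 lower without replicate 2, and 5 higher and 5 lower without replicate 3.

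The enzymes that write and remove DNA methylation split within families. Of 11 tested, 3 rose (Uhrf1, Dnmt3l and Trim28), 3 fell (Dnmt3a, Tet1 and Tet3) and 5 did not pass (27.3% higher and 27.3% lower, all genes 17.5% and 19.1%), with a median of -0.22. Dnmt3a, a de novo methyltransferase, stood at 76.4 and 69.4 CPM in the lines and 264, 300.0 and 206 CPM in the GFP-positive libraries, both lines being below all 3 GFP-positive libraries (log2 fold change -1.82 ± 0.18, adjusted p = 0.00187). Dnmt3l, the catalytically inactive cofactor of the de novo enzymes, stood at 339 and 301 CPM in the lines and 35.3, 96.2 and 120.4 CPM in the GFP-positive libraries, with both lines above (log2 fold change 1.93 ± 0.44, adjusted p = 0.018). Dnmt3b, the other de novo enzyme, did not pass, at 206 and 192 CPM in the lines and 233, 315 and 437 CPM in the GFP-positive libraries (log2 fold change -0.72 ± 0.25, adjusted p = 0.0623), but was lower in the lines without replicate 3 (-0.47, adjusted p = 0.0162) and within the first project (-1.11, adjusted p = 0.000131). Uhrf1, which brings the maintenance enzyme to replicated DNA, stood at 895 and 863 CPM in the lines and 489.6, 439.5 and 403 CPM in the GFP-positive libraries (log2 fold change 0.99 ± 0.10, adjusted p = 0.00222). Tet1, which oxidises methylated cytosine, stood at 258 and 277 CPM in the lines and 919.9, 840.3 and 623 CPM in the GFP-positive libraries (log2 fold change -1.57 ± 0.18, adjusted p = 0.00254). Tet2 did not pass, at 172 and 213 CPM in the lines and 311, 343 and 151 CPM in the GFP-positive libraries, where replicate 3 lay below both lines (log2 fold change -0.48 ± 0.34, adjusted p = 0.297). Each fit with 1 line left out had 1 higher and 2 lower. There were 2 higher and 4 lower without GFP-positive replicate 1, 3 higher and 6 lower without replicate 3, and 2 higher and 5 lower with scaling by library size.

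Of 14 Polycomb genes tested, 3 rose, 1 fell and 10 did not pass (21.4% higher and 7.14% lower, all genes 17.5% and 19.1%), with a median of 0.14. Eed, a core subunit of Polycomb repressive complex 2, stood at 382 and 392 CPM in the lines and 162, 203 and 171 CPM in the GFP-positive libraries (log2 fold change 1.12 ± 0.12, adjusted p = 0.00219). Ezh2, its methyltransferase, was at 250.2 and 249.5 CPM in the lines and 165, 152 and 172 CPM in the GFP-positive libraries (log2 fold change 0.62 ± 0.09, adjusted p = 0.00451). Jarid2, an accessory subunit, fell, from 874, 1057 and 758 to 361 and 329.9 CPM (log2 fold change -1.38 ± 0.16, adjusted p = 0.00252), while Mtf2, another, rose (log2 fold change 0.57 ± 0.12, adjusted p = 0.0123). Leaving out line 1 or line 2 left 1 higher and 1 lower in each case. The split was 3 higher and 2 lower without replicate 3, 3 higher and 2 lower within the first sequencing project, and 3 higher and 3 lower with scaling by library size.

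Genes of the 2-cell-like state, a rare transient state of ES cell cultures marked by Zscan4, held many of the largest rises. Of 15 entries for its members, 7 could be tested, 6 of these rose and none fell, with a median of 6.17. The shares were 85.7% higher and 0% lower, against 17.5% and 19.1% of all genes. The members named below are Zscan4 copies, which are not independent of each other, and Tmem92. Zscan4c stood at 122 and 141 CPM in the lines and 0.227, 1.94 and 2.64 CPM in the GFP-positive libraries. Its lowest line was more than 40-fold above its highest GFP-positive library (log2 fold change 6.43 ± 0.52, adjusted p = 0.00128). Zscan4f was at 124 and 150.2 CPM in the lines and 0, 2.01 and 2.75 CPM in the GFP-positive libraries (log2 fold change 6.51 ± 0.66, adjusted p = 0.00205). Zscan4d was at 54.2 and 57.7 CPM in the lines and 0, 1.34 and 1.72 CPM in the GFP-positive libraries (log2 fold change 5.84 ± 0.70, adjusted p = 0.00296). Zscan4b was at 62 and 74 CPM in the lines and 0, 1.34 and 1.6 CPM in the GFP-positive libraries (log2 fold change 6.17 ± 0.68, adjusted p = 0.00245). Tmem92 held 2.91 and 4.4 CPM in the lines and no read in any GFP-positive library, which makes it at least 45.5-fold higher in the lines against a floor of 3 reads over the group (adjusted p = 0.00513). The undifferentiated library held 79.1 CPM of Zscan4c and the colony lines 24.1 to 177 CPM. Fits without line 1 and without line 2 each gave 5 higher and 0 lower.

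The Zscan4 copies are not independent measurements. Their promoters, shown here to let a reader see how alike the copies are, come from RefSeq, build GRCm38.p6, for Zscan4b at chr7:10905001-10905300 on the - strand and Zscan4f at chr7:11397665-11397964 on the + strand. Capitals mark the 13 positions at which they differ.
Zscan4b: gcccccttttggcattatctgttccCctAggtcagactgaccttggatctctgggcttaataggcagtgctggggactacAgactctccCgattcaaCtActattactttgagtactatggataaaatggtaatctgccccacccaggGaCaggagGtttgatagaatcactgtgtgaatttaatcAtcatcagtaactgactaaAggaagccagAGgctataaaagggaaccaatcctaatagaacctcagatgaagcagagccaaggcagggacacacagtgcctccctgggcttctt
Zscan4f: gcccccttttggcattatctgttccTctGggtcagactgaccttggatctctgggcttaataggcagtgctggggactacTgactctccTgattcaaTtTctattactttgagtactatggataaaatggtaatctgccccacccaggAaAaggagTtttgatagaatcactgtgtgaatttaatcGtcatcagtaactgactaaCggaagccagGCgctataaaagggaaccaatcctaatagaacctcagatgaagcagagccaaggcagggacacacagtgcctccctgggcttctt
The other 287 of 300 positions are identical. Shifted by 23 bases, the promoters of Zscan4c and Zscan4f share 275 of 277 positions. Reads from such copies can be assigned to the wrong one or lost, so the level of a single copy is uncertain, and the family is best read as 1 signal that was high in both lines and low in all 3 GFP-positive libraries.

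Germline genes were more often lower in the lines: 9 of 21 tested fell, 3 rose and 9 did not pass (14.3% higher and 42.9% lower, against 17.5% and 19.1% of all genes), with a median of -0.81. Those that fell included Mov10l1, a helicase that makes piRNAs, at 9.08 and 6.07 CPM in the lines and 24.4, 32.6 and 28.8 CPM in the GFP-positive libraries (log2 fold change -1.92 ± 0.24, adjusted p = 0.00317). Ddx4, the Vasa helicase, was at 6.0 and 7.75 CPM in the lines and 19.9, 19 and 21.3 CPM in the GFP-positive libraries (log2 fold change -1.54 ± 0.19, adjusted p = 0.00318). Gpat2, a piRNA pathway protein, was at 9.6 and 10.5 CPM in the lines and 22.9, 30.3 and 32.6 CPM in the GFP-positive libraries (log2 fold change -1.51 ± 0.21, adjusted p = 0.00396). Tdrd1, a Tudor protein, was at 0.171 and 0.607 CPM in the lines and 4.46, 2.94 and 4.24 CPM in the GFP-positive libraries (log2 fold change -3.24 ± 0.57, adjusted p = 0.0079). In contrast, both Prdm1 and Tfap2c, transcription factors of primordial germ cell specification, rose. Prdm1 stood at 9.6 and 8.66 CPM in the lines and 1.06, 1.94 and 1.83 CPM in the GFP-positive libraries (log2 fold change 2.5 ± 0.35, adjusted p = 0.00396). Tfap2c was at 43.5 and 46.6 CPM in the lines and 0.605, 1.74 and 9.63 CPM in the GFP-positive libraries (log2 fold change 3.61 ± 0.87, adjusted p = 0.0214). Fitted without line 1 the list had 0 higher and 1 lower, and without line 2 1 higher and 3 lower. Calls numbered 5 higher and 9 lower without replicate 3.

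Imprinted genes gave 3 higher, 8 lower and 16 not passing of 27 tested (11.1% higher and 29.6% lower, all genes 17.5% and 19.1%), with a median of -0.22. Plagl1, a paternally expressed zinc-finger factor, stood at 63.9 and 61.2 CPM in the lines and 1.97, 2.74 and 14.4 CPM in the GFP-positive libraries (log2 fold change 3.37 ± 0.75, adjusted p = 0.0165). Impact, a translational regulator, was at 159 and 158 CPM in the lines and 93.8, 97.2 and 108 CPM in the GFP-positive libraries (log2 fold change 0.68 ± 0.09, adjusted p = 0.00396). Peg10, a retrotransposon-derived gene, stood at 86.9 and 70.5 CPM in the lines and 272, 322 and 799 CPM in the GFP-positive libraries (log2 fold change -2.56 ± 0.51, adjusted p = 0.0114), and its neighbour Sgce, a sarcoglycan, at 2.06 and 1.52 CPM in the lines and 6.13, 9.5 and 13.6 CPM in the GFP-positive libraries (log2 fold change -2.44 ± 0.45, adjusted p = 0.0089). Ndn, which encodes necdin, was at 5.66 and 5.16 CPM in the lines and 12.3, 13.9 and 13.9 CPM in the GFP-positive libraries (log2 fold change -1.3 ± 0.20, adjusted p = 0.00554). H19, counted together with Mir675, stood at 9.43 and 10.5 CPM in the lines and 76.2, 49.7 and 833 CPM in the GFP-positive libraries, with most in replicate 3, where the endoderm markers were also high (log2 fold change -5.0 ± 1.51, adjusted p = 0.0424). Without line 1, and likewise without line 2, there were 0 higher and 0 lower. There were 2 higher and 7 lower without GFP-positive replicate 1, 3 higher and 5 lower without replicate 2, 6 higher and 9 lower without replicate 3, and 2 higher and 8 lower with scaling by library size.

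Most genes that handle AICAR and adenosine were higher in the lines. Of 15 tested, 9 rose, 1 fell and 5 did not pass (60% higher and 6.67% lower, against 17.5% and 19.1% of all genes), with a median of 0.73. Nt5e, the surface enzyme CD73 that makes adenosine from AMP, stood at 27.8 and 23.2 CPM in the lines and 1.36, 3.61 and 3.32 CPM in the GFP-positive libraries (log2 fold change 3.21 ± 0.39, adjusted p = 0.003). Atic, the enzyme that consumes ZMP in purine synthesis, was at 376 and 368 CPM in the lines and 231, 222 and 221 CPM in the GFP-positive libraries (log2 fold change 0.73 ± 0.08, adjusted p = 0.00245). Aprt, which salvages adenine, was at 155 and 150.5 CPM in the lines and 81.7, 87.5 and 88.3 CPM in the GFP-positive libraries (log2 fold change 0.83 ± 0.08, adjusted p = 0.00204). Hprt, which salvages hypoxanthine and guanine, was at 164 and 159 CPM in the lines and 84.3, 92.8 and 97.7 CPM in the GFP-positive libraries (log2 fold change 0.82 ± 0.10, adjusted p = 0.00264). Ahcy, which splits S-adenosylhomocysteine, was at 459 and 452 CPM in the lines and 280.1, 254 and 261 CPM in the GFP-positive libraries (log2 fold change 0.78 ± 0.09, adjusted p = 0.00245). Ampd3, an AMP deaminase, was the 1 that fell (log2 fold change -1.49 ± 0.30, adjusted p = 0.0116). Adk, the kinase that makes ZMP from AICAR, is named here after its values were seen and did not pass, at 52.1 and 52.4 CPM in the lines and 56.1, 48.5 and 53.3 CPM in the GFP-positive libraries (log2 fold change -0.01 ± 0.11, adjusted p = 0.949). Leaving out line 1 left 5 higher and 0 lower, and leaving out line 2 left 6 higher and 0 lower. The split was 10 higher and 2 lower without replicate 3, and 7 higher and 3 lower with scaling by library size.

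Purine and folate synthesis genes rose in 12 of 19 tested entries, fell in 1 and did not pass in 6 (63.2% higher and 5.26% lower, against 17.5% and 19.1% of all genes), with a median of 0.51, and every rise was under 2-fold. Gart, a trifunctional purine enzyme, stood at 627 and 583 CPM in the lines and 403, 429 and 388 CPM in the GFP-positive libraries (log2 fold change 0.57 ± 0.09, adjusted p = 0.00554). Adsl, which acts both before and after ZMP, was at 146 and 136 CPM in the lines and 101, 99.1 and 95.1 CPM in the GFP-positive libraries (log2 fold change 0.52 ± 0.09, adjusted p = 0.00663). Shmt1, a folate enzyme, was at 243 and 233 CPM in the lines and 163, 150.4 and 128 CPM in the GFP-positive libraries (log2 fold change 0.69 ± 0.12, adjusted p = 0.00687). Prps1, which makes the ribose donor, rose (log2 fold change 0.84 ± 0.16, adjusted p = 0.00919) and its relative Prps2 fell (log2 fold change -0.56 ± 0.17, adjusted p = 0.0411). Leaving out line 1 or line 2 left 1 higher and 0 lower in each case. The counts became 12 higher and 0 lower without GFP-positive replicate 1, and 10 higher and 2 lower with scaling by library size.

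The AMPK pathway list, which holds the kinase subunits, its activators and its targets, gave 3 higher, 5 lower and 18 not passing of 26 tested, with a median of -0.15. Its shares were 11.5% higher and 19.2% lower, against 17.5% and 19.1% of all genes. Prkaa1, a catalytic subunit, stood at 34.1 and 34.5 CPM in the lines and 44.8, 47 and 43 CPM in the GFP-positive libraries (log2 fold change -0.39 ± 0.11, adjusted p = 0.0389), and its call was lost in 9 alternative fits. The other catalytic subunit, Prkaa2, did not pass, at 6.86 and 5.92 CPM in the lines and 6.21, 7.16 and 19.7 CPM in the GFP-positive libraries (log2 fold change -0.77 ± 0.55, adjusted p = 0.306). Tfeb, a lysosomal transcription factor, stood at 69.4 and 70.5 CPM in the lines and 12.6, 9.91 and 14.9 CPM in the GFP-positive libraries (log2 fold change 2.5 ± 0.18, adjusted p = 0.00108). Ulk1, the autophagy kinase, was at 220.3 and 216 CPM in the lines and 118, 108 and 132 CPM in the GFP-positive libraries (log2 fold change 0.87 ± 0.11, adjusted p = 0.003). Cpt1a, which imports fatty acids into mitochondria, rose by less than 2-fold (log2 fold change 0.58 ± 0.08, adjusted p = 0.00422). Txnip, an inhibitor of glucose uptake whose protein AMPK destabilises, was counted together with Gm15441 and stood at 76.6 and 71.8 CPM in the lines and 353, 264 and 199 CPM in the GFP-positive libraries (log2 fold change -1.87 ± 0.24, adjusted p = 0.00335). Sirt1, a deacetylase, was at 144 and 139.6 CPM in the lines and 229.7, 232 and 167 CPM in the GFP-positive libraries (log2 fold change -0.56 ± 0.16, adjusted p = 0.0353), and within the first project it did not pass (-0.20, adjusted p = 0.459). Fits without line 1 and without line 2 each gave 2 higher and 0 lower. Calls numbered 3 higher and 3 lower without GFP-positive replicate 1, and 3 higher and 8 lower with scaling by library size.

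Among amino acid enzymes 6 of 15 tested rose and 3 fell (40% higher and 20% lower, all genes 17.5% and 19.1%), with a median of 0.44. Bcat1, which starts the breakdown of branched-chain amino acids, stood at 525 and 527 CPM in the lines and 157, 165 and 166 CPM in the GFP-positive libraries (log2 fold change 1.69 ± 0.08, adjusted p = 0.000435). Asns, asparagine synthetase, was at 494 and 476 CPM in the lines and 149, 172 and 186 CPM in the GFP-positive libraries (log2 fold change 1.52 ± 0.11, adjusted p = 0.00108). Glul, glutamine synthetase, fell (log2 fold change -0.95 ± 0.13, adjusted p = 0.00406). Removing either line left 3 higher and 0 lower. There were 9 higher and 4 lower without replicate 3. Nuclear-encoded oxidative phosphorylation genes rose in 14 of 32 tested (43.8%, against 17.5% of all genes) and fell in none, with a median of 0.27. The 2 leading genes encode subunits of complex III, Uqcrc1 at 521 and 485 CPM in the lines and 232, 253 and 225 CPM in the GFP-positive libraries (log2 fold change 1.09 ± 0.09, adjusted p = 0.00135). Uqcrq was at 89.6 and 89 CPM in the lines and 44.6, 53.8 and 47.5 CPM in the GFP-positive libraries (log2 fold change 0.88 ± 0.11, adjusted p = 0.00318). Fitted without line 1 the list had 1 higher and 0 lower, and without line 2 5 higher and 0 lower. The split was 9 higher and 0 lower without replicate 2, 15 higher and 1 lower without replicate 3, and 8 higher and 1 lower with scaling by library size. Ribosomal protein genes rose in 24 of 30 tested (80%, against 17.5% of all genes) and fell in none, with a median of 0.48. Rpl8 led, at 2518 and 2478 CPM in the lines and 1439, 1398 and 1369.8 CPM in the GFP-positive libraries (log2 fold change 0.83 ± 0.07, adjusted p = 0.00135), and all 30 had a positive log2 fold change. Each fit with 1 line left out had 1 higher and 0 lower. The counts became 15 higher and 0 lower without replicate 2, and 14 higher and 0 lower with scaling by library size.

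**Figure D3:**
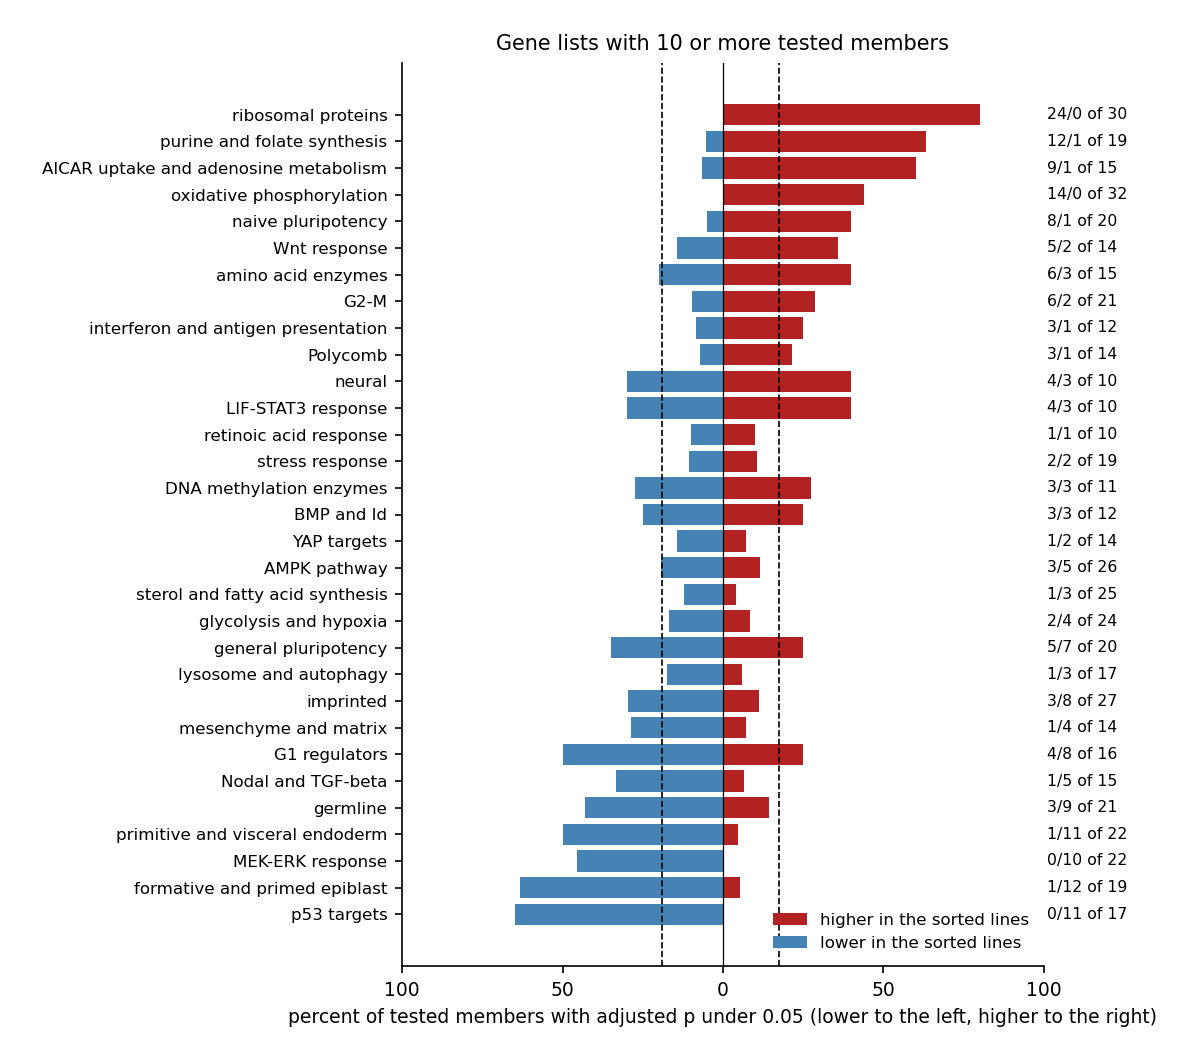
Percent of tested members with an adjusted p under 0.05 in each list with 10 or more tested members, higher in the sorted lines to the right (red) and lower to the left (blue), with the counts as higher/lower of tested at the right edge. Dashed lines mark the shares over all 12593 genes, 17.5% higher and 19.1% lower. Ribosomal proteins (24 of 30 higher) and p53 targets (11 of 17 lower) stand at the ends.

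Glycolysis and hypoxia genes depended on which GFP-positive library was used. Of 24 tested, 2 rose, 4 fell and 18 did not pass (8.33% higher and 16.7% lower, all genes 17.5% and 19.1%), with a median of 0.22. Leaving out line 1 or line 2 left 0 higher and 1 lower in each case. Calls numbered 1 higher and 5 lower without GFP-positive replicate 1, 1 higher and 4 lower without replicate 2, 16 higher and 4 lower without replicate 3, 2 higher and 7 lower within the first sequencing project, and 0 higher and 4 lower with scaling by library size. The 25 entries summed to 17857 and 16872 CPM in the lines, 11015 and 9985 CPM in replicates 1 and 2 and 16704 CPM in replicate 3. Ldha, lactate dehydrogenase A, picked after its values were seen, shows the pattern: 739 and 677 CPM in the lines and 92.5, 154 and 710.5 CPM in the GFP-positive libraries, so replicate 3 lay between the 2 lines and replicates 1 and 2 lay below both (log2 fold change 1.16 ± 0.78, adjusted p = 0.283). Calls that held without replicate 3 included Ldhb, the other lactate dehydrogenase, at 62.4 and 70 CPM in the lines and 391, 257 and 350.0 CPM in the GFP-positive libraries (log2 fold change -2.33 ± 0.20, adjusted p = 0.00135). Pdk1, which restrains pyruvate entry into mitochondria, was at 97.2 and 87 CPM in the lines and 219.5, 160.0 and 191 CPM in the GFP-positive libraries (log2 fold change -1.05 ± 0.15, adjusted p = 0.0045). Gapdh rose (log2 fold change 0.53 ± 0.12, adjusted p = 0.0171), a call lost under library-size scaling, without either line and with a minimum fold of 1.5. Replicate 3 also held the most endoderm marker reads and comes from the other sequencing project than replicates 1 and 2, and the part of either in these values was not tested.

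**Figure D4:**
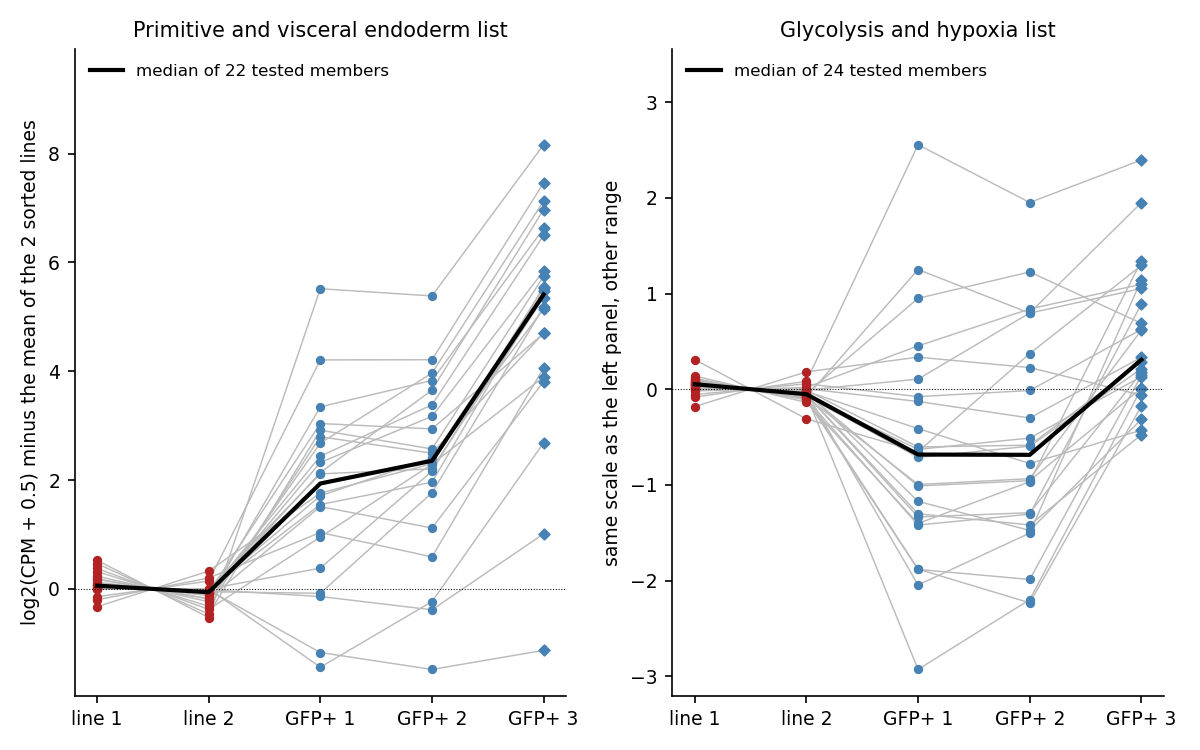
Log2(CPM + 0.5) of each tested member (grey lines join its 5 libraries) minus the mean of the sorted lines, for 22 endoderm and 24 glycolysis and hypoxia entries, with the list median in black. GFP-positive replicate 3 lies above replicates 1 and 2 at the median of both lists, and for glycolysis and hypoxia it lies near the lines.

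p53 target genes fell together: 11 of 17 tested were lower, none was higher and 6 did not pass (64.7% lower, against 19.1% of all genes), with a median of -0.57. Gadd45a, a growth arrest gene counted together with E230016M11Rik, stood at 6.68 and 6.53 CPM in the lines and 24.9, 23.9 and 25.6 CPM in the GFP-positive libraries (log2 fold change -1.9 ± 0.16, adjusted p = 0.00135). Trp53inp1, a stress-induced nuclear protein, was at 50.9 and 48.9 CPM in the lines and 108, 110.2 and 97.2 CPM in the GFP-positive libraries (log2 fold change -1.07 ± 0.10, adjusted p = 0.00165). Zmat3, counted with 4930429B21Rik, was at 33.4 and 27 CPM in the lines and 74.8, 67.4 and 56.5 CPM in the GFP-positive libraries (log2 fold change -1.13 ± 0.17, adjusted p = 0.00473). Btg2, an antiproliferative gene, was at 5.48 and 5.47 CPM in the lines and 32.8, 17.3 and 22 CPM in the GFP-positive libraries (log2 fold change -2.13 ± 0.32, adjusted p = 0.00514). Cdkn1a, which encodes the p21 inhibitor and is the best known p53 target, did not pass, at 31.7 and 38.3 CPM in the lines and 27.3, 30.6 and 32.6 CPM in the GFP-positive libraries (log2 fold change 0.22 ± 0.15, adjusted p = 0.297). With line 1 removed there were 0 higher and 3 lower, and with line 2 removed 0 higher and 2 lower. There were 0 higher and 7 lower within the first sequencing project.

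Among G1 regulators 4 of 16 tested rose, 8 fell and 4 did not pass (25% higher and 50% lower, all genes 17.5% and 19.1%), with a median of -0.51. Ccnd2, which encodes cyclin D2, stood at 0.171 and 0.152 CPM in the lines and 28.8, 28 and 14 CPM in the GFP-positive libraries, with 2 reads in the lines together. The GFP-positive to line ratio of its summed reads was 155 (95% exact counting interval 42.8 to 1281), adjusted p = 0.00135. Cdkn1b, the p27 inhibitor, was at 16.8 and 18.1 CPM in the lines and 69.4, 48.5 and 62 CPM in the GFP-positive libraries (log2 fold change -1.78 ± 0.19, adjusted p = 0.00227). Mycn, which drives growth, was at 60 and 53.8 CPM in the lines and 167, 168 and 133 CPM in the GFP-positive libraries (log2 fold change -1.46 ± 0.14, adjusted p = 0.00184). Ccne1, cyclin E1, rose from 102, 102 and 93.7 to 246 and 234 CPM (log2 fold change 1.27 ± 0.09, adjusted p = 0.000873). Cdkn2a, which encodes p16 and p19Arf, was at 4.63 and 3.49 CPM in the lines and 0.378, 1.27 and 1.72 CPM in the GFP-positive libraries, and its adjusted p of 0.0491 was at the threshold. Its call was lost in 8 alternative fits. In fits without line 1 and without line 2 there were 1 higher and 3 lower, and 2 higher and 3 lower, respectively. The split was 2 higher and 7 lower without replicate 2, 2 higher and 6 lower within the first sequencing project, and 2 higher and 8 lower with scaling by library size. G2-M genes gave 6 higher and 2 lower of 21 tested (28.6% higher and 9.52% lower, all genes 17.5% and 19.1%), with a median of -0.01. Cdc20, an activator of the anaphase-promoting complex, stood at 347 and 312 CPM in the lines and 227, 209 and 191 CPM in the GFP-positive libraries (log2 fold change 0.66 ± 0.11, adjusted p = 0.00624). Cdk1 was at 228 and 209 CPM in the lines and 153, 166 and 137 CPM in the GFP-positive libraries (log2 fold change 0.52 ± 0.11, adjusted p = 0.013). Mki67, which encodes the proliferation antigen Ki-67, went the other way, at 417 and 466 CPM in the lines and 969, 859.7 and 748 CPM in the GFP-positive libraries (log2 fold change -0.96 ± 0.13, adjusted p = 0.00386), as did the kinetochore gene Cenpf (log2 fold change -1.06 ± 0.13, adjusted p = 0.00278). Removal of line 1 gave 0 higher and 0 lower, and removal of line 2 gave 0 higher and 2 lower. The counts became 3 higher and 2 lower without replicate 2, 6 higher and 4 lower without replicate 3, and 2 higher and 3 lower with scaling by library size.

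Primitive and visceral endoderm markers were low in the lines. Of 22 tested, 11 fell, 1 rose and 10 did not pass (4.55% higher and 50% lower, against 17.5% and 19.1% of all genes), with a median of -5.06, or -4.78 with the 2 genes at 0 reads in the lines set at their bound. In bulk RNA, fewer cells of a type and less RNA per cell cannot be told apart. Gata6, the factor that specifies primitive endoderm, stood at 0.343 and 0.152 CPM in the lines and 7.04, 10 and 72.6 CPM in the GFP-positive libraries, with 3 reads in the lines together. The ratio of its summed reads, GFP-positive to lines, was 98.3 (95% exact counting interval 33.5 to 478), adjusted p = 0.0268. Cubn, the endocytic receptor cubilin, was at 2.74 and 1.06 CPM in the lines and 103, 93.5 and 644 CPM in the GFP-positive libraries (log2 fold change -7.22 ± 1.40, adjusted p = 0.0105). Dab2, its adaptor, was at 1.03 and 1.37 CPM in the lines and 30.7, 30.8 and 297 CPM in the GFP-positive libraries (log2 fold change -6.6 ± 1.70, adjusted p = 0.0257). Lrp2, its partner megalin, was at 27.3 and 24.8 CPM in the lines and 217, 203 and 685 CPM in the GFP-positive libraries (log2 fold change -3.82 ± 0.65, adjusted p = 0.00695). All 4 were highest in replicate 3, and all were also above both lines in replicates 1 and 2. The basement membrane collagen Col4a2 was at 13.9 and 9.87 CPM in the lines and 77.7, 190.5 and 1707 CPM in the GFP-positive libraries (log2 fold change -5.79 ± 1.58, adjusted p = 0.0307). Apoe, a lipoprotein gene that ES cells also express, was the 1 that rose, at 896 and 873 CPM in the lines and 393, 317 and 404 CPM in the GFP-positive libraries (log2 fold change 1.25 ± 0.12, adjusted p = 0.00187). Each fit with 1 line left out had 1 higher and 0 lower. Calls numbered 1 higher and 21 lower within the first sequencing project. The endoderm count also depended on the method used on all 5 libraries. It was 1 higher and 1 lower with limma-voom, and 1 higher and 3 lower with a minimum fold of 1.5. With DESeq2 it was 1 higher and 18 lower. The GFP-negative library of the same day held 58813 CPM over the list.

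Other lineage markers were mostly at low levels. Of mesenchyme and matrix genes 1 of 14 tested rose and 4 fell. Vim, the intermediate filament vimentin, stood at 651 and 609.7 CPM in the lines and 177, 151 and 218 CPM in the GFP-positive libraries (log2 fold change 1.79 ± 0.16, adjusted p = 0.00135), whereas Cdh2, N-cadherin, fell to 8.06 and 8.35 CPM from 27.8, 30.8 and 20.3 CPM (log2 fold change -1.68 ± 0.23, adjusted p = 0.00383). Twist1, an inducer of mesenchyme, was at 0.857 and 1.21 CPM in the lines and 5.15, 3.88 and 3.1 CPM in the GFP-positive libraries (log2 fold change -1.95 ± 0.43, adjusted p = 0.0153). Smooth muscle genes gave 3 lower of 7 tested, with Acta2, smooth muscle actin, at 0.686 and 1.52 CPM in the lines and 10.7, 7.23 and 48.8 CPM in the GFP-positive libraries (log2 fold change -4.28 ± 1.13, adjusted p = 0.0276). Of 6 cardiac muscle genes tested, 2 rose, both from low levels: Myl7, an atrial myosin light chain, at 5.31 and 5.62 CPM in the lines and 0.681, 0.669 and 0.688 CPM in the GFP-positive libraries (log2 fold change 2.99 ± 0.34, adjusted p = 0.00253). Tnni3, a troponin, was at 3.77 and 4.1 CPM in the lines and 1.51, 1.54 and 1.38 CPM in the GFP-positive libraries (log2 fold change 1.4 ± 0.33, adjusted p = 0.0188). Neural genes split 4 higher and 3 lower of 10, with Sox11 at 3.94 and 4.1 CPM in the lines and 18.5, 23.8 and 16 CPM in the GFP-positive libraries (log2 fold change -2.27 ± 0.25, adjusted p = 0.00245). Nefm, a neurofilament gene counted with A230070E04Rik, was at 31 and 26.3 CPM in the lines and 0.378, 5.69 and 4.59 CPM in the GFP-positive libraries (log2 fold change 3.01 ± 0.77, adjusted p = 0.0248). Trophoblast genes gave 1 higher, Tfap2a at 5.48 and 7.59 CPM in the lines and 0.378, 0.602 and 1.03 CPM in the GFP-positive libraries (log2 fold change 3.32 ± 0.46, adjusted p = 0.00405), and 1 lower, Fgfr2, an FGF receptor that also marks primitive endoderm, at 0.514 and 1.37 CPM in the lines and 11.2, 9.5 and 32.6 CPM in the GFP-positive libraries (log2 fold change -4.18 ± 0.81, adjusted p = 0.0105), of 5 tested. Primitive streak markers gave 2 lower of 5, endothelial and blood markers 1 lower of 8, and skin and simple epithelium markers 1 lower of 9. These 3 lists had 10, 8 and 8 members too low to test. All of these counts are of few genes. Over all genes 17.5% were higher and 19.1% lower.

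Mesenchyme and matrix counts were 1 higher and 0 lower without line 1 and without line 2. Further fits gave 2 higher and 6 lower without replicate 3, 1 higher and 7 lower within the first project, and 1 higher and 6 lower with scaling by library size. Smooth muscle counts were 0 higher and 1 lower without line 1 and without line 2. Further fits gave 0 higher and 2 lower without replicate 1. Cardiac muscle counts were 1 higher and 0 lower without line 1 and without line 2. Neural counts were 0 higher and 1 lower without line 1 and without line 2. They were 3 higher and 2 lower without replicate 1 and 4 higher and 1 lower without replicate 2 and within the first project. Trophoblast counts were 1 higher and 0 lower without line 1 and 0 higher and 0 lower without line 2. Further fits gave 2 higher and 1 lower without replicate 3. Primitive streak counts were 0 higher and 0 lower without line 1 and without line 2. They were 0 higher and 1 lower without replicate 2 and 0 higher and 3 lower without replicate 3. Endothelial and blood counts were 0 higher and 0 lower without line 1 and without line 2. Further fits gave 0 higher and 2 lower without replicate 1 and without replicate 2, 0 higher and 3 lower without replicate 3 and with scaling by library size, and 1 higher and 5 lower within the first project. Skin and simple epithelium counts were 0 higher and 0 lower without line 1, without line 2 and without replicate 2. They were 4 higher and 2 lower without replicate 3 and 0 higher and 6 lower within the first project. Vim, Myl9, Myl7 and Sox11 kept their calls without line 1 and without line 2.

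In 5 further lists (sterol, lysosome, stress, YAP and retinoic acid) no share was above those of all genes. Sterol and fatty acid synthesis gave 1 higher and 3 lower of 25, with the fatty acid desaturase Scd1 at 48.2 and 47.2 CPM in the lines and 78.4, 72.6 and 117 CPM in the GFP-positive libraries (log2 fold change -0.90 ± 0.22, adjusted p = 0.0215). The counts were 0 higher and 0 lower without line 1 and 0 higher and 1 lower without line 2. There were 0 higher and 3 lower without GFP-positive replicate 1, 0 higher and 4 lower without replicate 2, 2 higher and 7 lower without replicate 3, 0 higher and 11 lower within the first sequencing project, and 0 higher and 7 lower with scaling by library size. Lysosome and autophagy genes gave 1 higher and 3 lower of 17, led by Psap, a precursor of saposins (log2 fold change -0.88 ± 0.13, adjusted p = 0.00441). Fits without line 1 and without line 2 each gave 0 higher and 0 lower. The split was 2 higher and 3 lower without replicate 2, 6 higher and 5 lower without replicate 3, 2 higher and 10 lower within the first sequencing project, and 0 higher and 5 lower with scaling by library size. The stress response list gave 2 higher and 2 lower of 19, with Hmox1, heme oxygenase, at 95 and 94.6 CPM in the lines and 25.4, 31.9 and 41.8 CPM in the GFP-positive libraries (log2 fold change 1.53 ± 0.20, adjusted p = 0.00336). Atf3, a stress-induced factor, was at 0.343 and 0.304 CPM in the lines and 2.72, 5.42 and 8.14 CPM in the GFP-positive libraries (log2 fold change -4.01 ± 0.71, adjusted p = 0.00788). Stress response counts were 2 higher and 0 lower without line 1 and without line 2. Further fits gave 3 higher and 2 lower without replicate 1, 5 higher and 2 lower without replicate 3, and 4 higher and 5 lower within the first project. Of 14 YAP-related genes 1 rose, Amotl2, a YAP-binding angiomotin (log2 fold change 1.21 ± 0.26, adjusted p = 0.0136), and 2 fell, led by Nuak2, an AMPK-related kinase, at 2.06 and 2.73 CPM in the lines and 12.4, 12.8 and 15.6 CPM in the GFP-positive libraries (log2 fold change -2.49 ± 0.27, adjusted p = 0.00226). YAP-related counts were 0 higher and 1 lower without line 1 and without line 2. Further fits gave 4 higher and 2 lower without replicate 3, 2 higher and 3 lower within the first project, and 1 higher and 3 lower with scaling by library size. Retinoic acid genes gave 1 higher, Meis2, a homeobox gene (log2 fold change 1.68 ± 0.26, adjusted p = 0.00534), and 1 lower, Cyp26a1, of 10. Retinoic acid counts were 0 higher and 0 lower without line 1 and without line 2. Further fits gave 1 higher and 2 lower without replicate 1 and with scaling by library size, 1 higher and 0 lower without replicate 2, 2 higher and 2 lower without replicate 3, and 1 higher and 4 lower within the first project.

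Interferon and antigen presentation genes gave 3 higher (Ifitm1, Ifitm3 and Oas1a) and 1 lower of 12 (25% higher and 8.33% lower, all genes 17.5% and 19.1%). The 1 that fell was Tap1, the peptide transporter, at 2.74 and 2.28 CPM in the lines and 8.1, 9.1 and 9.51 CPM in the GFP-positive libraries (log2 fold change -1.82 ± 0.26, adjusted p = 0.00447). Interferon and antigen presentation counts were 0 higher and 0 lower without line 1 and without line 2. Further fits gave 3 higher and 5 lower without replicate 1, 2 higher and 1 lower without replicate 2, 3 higher and 2 lower without replicate 3 and with scaling by library size, and 4 higher and 5 lower within the first project.

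By size of change alone, and with a level of at least 4 CPM in the higher group, the 15 largest rises held 6 Zscan4 copies and 4 entries that join several predicted genes. The others included Calcoco2, an autophagy receptor, at 114 and 119.5 CPM in the lines and 1.06, 2.34 and 0.802 CPM in the GFP-positive libraries (log2 fold change 6.29 ± 0.32, adjusted p = 0.000436). Arhgdib, a regulator of small GTPases, was at 36.3 and 31.3 CPM in the lines and 0.0757, 0.201 and 1.15 CPM in the GFP-positive libraries (log2 fold change 6.36 ± 0.65, adjusted p = 0.00204). Aox3, an aldehyde oxidase, was at 19.2 and 23.4 CPM in the lines and 0, 0.468 and 0.344 CPM in the GFP-positive libraries (log2 fold change 6.24 ± 0.64, adjusted p = 0.00209). Crygd, a lens crystallin, was at 5.31 and 4.71 CPM in the lines and 0, 0 and 0.115 CPM in the GFP-positive libraries, with 1 read in the GFP-positive libraries together, for a line to GFP-positive ratio of 184 (95% exact counting interval 31.8 to 7388). All 3 of Calcoco2, Arhgdib and Aox3 also stood higher in the undifferentiated library than in any GFP-positive library, at 81.9, 21 and 15 CPM. The 15 largest falls were led by Grin2a, a subunit of the NMDA glutamate receptor, which had no read in either line and 7.57, 11.1 and 2.06 CPM in the GFP-positive libraries. Against a floor of 3 reads over the lines it was at least 31.9-fold lower (adjusted p = 0.0135). Tspan8, a tetraspanin, was likewise at 0 in the lines and at 2.27, 1.47 and 9.63 CPM, at least 15.3-fold lower (adjusted p = 0.0331). Besides endoderm genes and Otx2, they included Arhgef28, a guanine nucleotide exchange factor, at 1.2 and 1.06 CPM in the lines and 63, 58.2 and 64.1 CPM in the GFP-positive libraries, with the smallest adjusted p of the 15 (log2 fold change -5.76 ± 0.19, adjusted p = 0.000145). Cyp26a1, which degrades retinoic acid, was at 0.686 and 0.304 CPM in the lines and 4.54, 11.9 and 78.5 CPM in the GFP-positive libraries (log2 fold change -5.97 ± 1.77, adjusted p = 0.0399). The myosin light chain Myl9 was at 0 and 0.152 CPM in the lines and 13.5, 7.96 and 5.5 CPM in the GFP-positive libraries, with 1 read in the lines and a ratio of summed reads of 117 (95% exact counting interval 20.8 to 4615).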

How the data were processed

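RNA of 19 libraries was measured by stranded mRNA sequencing, and 5 libraries enter the comparison. Per the submitters' processing notes the reads went through bcl2fastq, CASAVA 1.8.2, Trimmomatic 0.3.3, TopHat2 2.0.14 and Bowtie2 2.2.5 on build mm9. Per the file headers the deposited read counts were made by the authors with rpkmforgenes on a RefSeq gene table, with the 3′ UTRs left out and 1 library per file. The deposited RPKM values, made by the same program per the file headers, divide by gene length and by reads used for normalization, and served here only to set levels of genes side by side as means over libraries. Each table holds 22756 entries under 22479 distinct names, and 817 of these names join several genes.

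The counts of the 5 libraries were tested with edgeR 4.0.16 (R 4.3.3): TMM scaling, filterByExpr with a minimum count of 10, the quasi-likelihood test and Benjamini-Hochberg adjustment over all 12593 genes tested. CPM are on the TMM scale of that fit, errors are standard errors of the log2 fold change, and a group with 0 reads was set at a floor of 3 reads. Intervals and floors cover counting error only. The script was tested on simulated counts. Alternatives were other scalings and filters, DESeq2 1.42.0, limma 3.58.1 (voom), glmTreat with a minimum fold of 1.5, thinned counts, all 19 libraries, the 17 libraries of the first sequencing project (where GFP-positive replicate 3 stands alone and is assumed to vary as other groups do), a replicate block, and each library left out in turn.

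The comparison and the 38 gene lists were chosen with earlier results of these data known. Named genes are the 15 largest changes each way among called genes above a level, the 4 smallest adjusted p and the largest change each way in each list, and a fixed set. Some genes that the rule names are not reported here. Fut4 of that set did not pass the filter. Notum, Adk and Ldha, and members listed by name only to complete a count (Tcl1, Nr5a2, Stat3, Il6st, Jak1, Trim28, Tet3), were named after their values were seen.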

Additional observations from a re-analysis of the deposited data

Results flagged for a closer look

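The levels of 12 genes shown in the plot of levels by library were also looked at over the 8 colony lines, which were grown in the same medium as the sorted lines. The lowest or highest colony line lay far from the others in 2 of 24 gaps tested by Dixon's criterion, and chance alone flags about 1 in 20 groups. Zfp42 stood at 378.9 CPM in colony line 7, against 563 to 653 CPM in the other colony lines and 515 and 509.8 CPM in the sorted lines. Cubn stood at 2.694 CPM in colony line 1, against 0.157 to 1.25 CPM in the other colony lines and 2.74 and 1.06 CPM in the sorted lines.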

How the results depend on the processing

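The precision of these calls is limited by 2 lines, 3 residual degrees of freedom and 6249922 to 14233421 reads per library. No called gene that could be tested turned its sign under any of the 18 alternatives. Every called gene had all libraries of one group above all of the other, so such a turn was hardly possible. Library-size scaling gave 1459 genes higher in the lines, and a minimum fold of 1.5 gave 565 higher and 880 lower. Leaving out 1 library at a time gave 331 to 3177 genes higher and 303 to 3272 lower, the lowest counts without sorted line 1 and the highest without AICAR GFP-positive replicate 3. Deviations of same-numbered libraries from their group means correlated at 0.028 and 0.0231. The GFP-positive mean included replicate 3, which stood apart, and the deviations of 2 lines mirror each other. These values therefore cannot decide whether the replicate numbers mark pairs. A fit with the replicate block gave 3401 genes higher and 3549 lower, with no named call lost. GFP-positive replicate 3 has no same-numbered line and so added nothing to the contrast in that fit, as in the fit without it. None of 10 sign changes of named genes concerned a called gene. Under library-size scaling the log2 fold change of Esrrb was -0.00434 and the log2 fold change of Etv4 was -0.0876. Within the first sequencing project Zfp42 was at 0.25, Tet2 at 0.38, Socs3 at -0.13, Nodal at 0.47, Id1 at 0.31 and Mesp2 at 0.098. With single libraries left out, Etv4 ranged from -0.00284 to 0.16 and Nodal from -0.28 to 0.17. The cause was not tested.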

Other observations

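Further members of the lists, picked here after their values were seen except for Crim1, passed edgeR's quasi-likelihood test. Among G1 regulators the pocket protein genes Rb1 and Rbl2 were lower in the lines. Rb1 stood at 10.3 and 10.6 CPM in the lines and 26.1, 21.4 and 23 CPM in the GFP-positive libraries (log2 fold change -1.17 ± 0.17, adjusted p = 0.00443). Rbl2 stood at 7.03 and 7.29 CPM in the lines and 19.1, 16.5 and 12.5 CPM in the GFP-positive libraries (log2 fold change -1.16 ± 0.24, adjusted p = 0.0132). Cdkn1c, the imprinted cyclin kinase inhibitor p57, stood at 1.54 and 2.43 CPM in the lines and 3.86, 9.17 and 18.3 CPM in the GFP-positive libraries (log2 fold change -2.37 ± 0.72, adjusted p = 0.0435). Cyclins moved apart, since Ccnd3, which encodes cyclin D3, was higher in the lines, at 165 and 134 CPM in the lines and 55.2, 80.6 and 69.9 CPM in the GFP-positive libraries (log2 fold change 1.12 ± 0.17, adjusted p = 0.0055), whereas cyclins D1 and D2 were lower. Ccne2, which encodes cyclin E2, was also higher, at 21.6 and 20.2 CPM in the lines and 7.87, 9.91 and 14.4 CPM in the GFP-positive libraries (log2 fold change 0.97 ± 0.27, adjusted p = 0.033).

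In serine synthesis, Phgdh, which catalyses the first step, stood at 90.7 and 92 CPM in the lines and 30, 56.2 and 58.6 CPM in the GFP-positive libraries (log2 fold change 0.92 ± 0.27, adjusted p = 0.0392). Psph, which catalyses the last step, stood at 32.4 and 29.8 CPM in the lines and 12.6, 17.7 and 13.1 CPM in the GFP-positive libraries (log2 fold change 1.1 ± 0.19, adjusted p = 0.00774). Foxo3, a forkhead factor that AMPK phosphorylates, stood at 30.3 and 27.2 CPM in the lines and 110.3, 102 and 60.8 CPM in the GFP-positive libraries (log2 fold change -1.67 ± 0.27, adjusted p = 0.00624). Crim1, a transmembrane protein that binds BMPs, stood at 2.4 and 2.58 CPM in the lines and 11.2, 15 and 111 CPM in the GFP-positive libraries, with the most in replicate 3 (log2 fold change -4.17 ± 1.29, adjusted p = 0.0458). In each of these genes all libraries of one group lay above all of the other, as they did in 65.9% of all tested genes.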
